A study of Mus musculus with 4 samples.

Results

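The genes described here are mucin-type and related Golgi glycosyltransferases of the mouse stomach, chosen by symbol: A4gnt, A4galt and the numbered genes of the Galnt, Gcnt, B3gnt, B3galt, B4galt, B4galnt, Fut, St3gal, St6gal and St6galnac families. Of 22180 genes with a probe set of their own on the array, 70 met this rule. Of those 70, 40 reached a mean log2 value of 5.03 over the arrays, which is the median gene's mean, and the text calls them the 40 expressed members. The other 30 lay under that value and are described separately. The rule also takes in enzymes of glycolipids, N-glycans and proteoglycans, and only some of these are named below by what they make.

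Gene expression was measured with microarrays in RNA of the gastric corpus, the acid-secreting part of the stomach, from mice 8 to 10 weeks old. The KO mice carried Atp4b-cre with Prkaa1 fl/fl and Prkaa2 fl/fl, on a mixed background of B6 and FVB, so that the genes of the AMPK catalytic subunits alpha 1 and alpha 2 were to be deleted in parietal cells, where the Atp4b promoter drives Cre. AMPK is an energy-sensing kinase that metformin is known to activate. The WT mice are labelled C57BL/6, and littermates served as controls where that was possible. For 14 days both genotypes received daily intraperitoneal metformin at 300 mg/kg or saline vehicle, which gave 4 groups (KO metformin, KO vehicle, WT metformin and WT vehicle) with 1 array in each. No difference between 2 arrays therefore has a replicate check or a p-value. Genotype and strain background cannot be told apart, and the sources used here do not say how many mice stand behind an array. Differences are given on the log2 scale, and a gene is counted as higher or lower from an absolute difference of 1 (2-fold).

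Mucins are large secreted or membrane-bound proteins whose serines and threonines carry dense sugar chains. A polypeptide GalNAc transferase adds the first sugar in the Golgi, other enzymes build a core and branch it, galactose and GlcNAc extend the arms, and fucose, sialic acid or a terminal GalNAc or GlcNAc closes them. In the stomach, Muc5ac of surface pit cells carries fucosylated chains, while Muc6 of mucous neck and deeper gland cells carries the terminal alpha-linked GlcNAc that A4gnt makes, a sugar known to hinder the growth of Helicobacter pylori. B4galnt2 adds the terminal GalNAc of the Sda antigen, and is known in mice for its expression in the gut epithelium.

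A4gnt, B4galnt2 and the sialyltransferase St6gal2 were the members that differed by 2-fold or more both between the genotypes under vehicle and between the KO arrays. The DNA just before 1 listed start site of each is therefore shown. Each run gives the 250 bases before 1 start site listed for the gene in RefSeq (GRCm38.p6), 5′ to 3′ on the gene's strand. The windows lie at chr9:99612252-99612501 (plus strand) for A4gnt, chr11:95914872-95915121 (minus strand) for B4galnt2 and chr17:55445132-55445381 (plus strand) for St6gal2. The A4gnt and St6gal2 windows lie inside the genes' listed spans, which begin at 99591179 and 55445118. The B4galnt2 window partly overlaps its gene's span, which begins at 95914960 on the minus strand. None of these start sites is thus the outermost one of its gene. Capitals mark matches on either strand to 6 motifs searched, namely the TATA box TATAAA, the GC box GGGCGG, the estrogen-related receptor element AAGGTCA, the GATA factor element AGATAA, the E-box CACGTG and the forkhead element TGTTTAC, which do not overlap in these windows.
A4gnt: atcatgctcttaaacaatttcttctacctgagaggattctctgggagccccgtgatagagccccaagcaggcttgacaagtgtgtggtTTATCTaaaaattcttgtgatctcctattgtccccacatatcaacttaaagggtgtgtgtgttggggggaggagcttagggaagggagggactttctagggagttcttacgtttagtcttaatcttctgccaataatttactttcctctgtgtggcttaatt
B4galnt2: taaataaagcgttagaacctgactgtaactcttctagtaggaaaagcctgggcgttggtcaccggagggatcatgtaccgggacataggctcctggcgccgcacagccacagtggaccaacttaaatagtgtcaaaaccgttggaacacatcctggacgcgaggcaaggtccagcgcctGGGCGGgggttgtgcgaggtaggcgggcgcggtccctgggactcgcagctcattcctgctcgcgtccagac
St6gal2: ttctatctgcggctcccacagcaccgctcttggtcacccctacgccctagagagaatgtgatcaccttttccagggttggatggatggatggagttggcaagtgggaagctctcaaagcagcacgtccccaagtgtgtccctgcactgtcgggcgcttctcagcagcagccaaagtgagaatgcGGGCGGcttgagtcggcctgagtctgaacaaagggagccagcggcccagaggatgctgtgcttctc
The A4gnt window held 1 AGATAA match, on the opposite strand at bases -162 to -157, and its GC content was 43.6%. The B4galnt2 and St6gal2 windows held 1 GGGCGG match each, at bases -71 to -66 and -66 to -61, with a GC content of 58.4% in both. Of all 32851 windows of this length in the RefSeq table, 9.99% held AGATAA and 32.7% GGGCGG, and the median GC content was 52.4%. The TATA box (in 12.4% of all windows), the estrogen-related receptor element (4.08%), the E-box (6.02%) and the forkhead element (3.17%) had no match in these windows. None of the motifs was found in all 3 of them.

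Before the members, the arrays were checked against their labels. The pump subunits of parietal cells Atp4a and Atp4b lay between 12.80 and 13.44 on all arrays, and all 18 parietal cell markers were expressed. Prkaa1 and Prkaa2 were lowest on the KO vehicle array (8.18 and 7.19), with 8.66 and 7.52 on KO metformin, 8.90 and 8.02 on WT metformin and 9.46 and 8.90 on WT vehicle. Squamous epithelial genes, which the neighbouring forestomach also carries, stood apart on 1 array: the summed linear signal of 15 measured markers was 3769 on KO metformin, 1054 on KO vehicle, 1310 on WT metformin and 1076 on WT vehicle. Of those 15, 6 were under the filter value on KO metformin, 11 on KO vehicle, 12 on WT metformin and 14 on WT vehicle. The summed linear signal of the parietal markers was 34597 on KO metformin, 29011 on KO vehicle, 33669 on WT metformin and 41573 on WT vehicle. These sums were lowest and highest on the same arrays as A4gnt, B4galnt2 and B4galt1 below, and as 28.8% of all expressed genes. By median log2 value the parietal markers were lowest on WT metformin instead (9.33, against 9.40 on KO vehicle). The 8 endothelial markers were also lowest on KO vehicle and highest on WT vehicle, with sums of 1008 on KO metformin, 827 on KO vehicle, 1170 on WT metformin and 1385 on WT vehicle. The 10 smooth muscle markers were likewise lowest on KO vehicle, with 11730 on KO metformin, 7983 on KO vehicle, 15971 on WT metformin and 15024 on WT vehicle. The summed signal of 7 measured plasma and B cell markers was highest on KO vehicle (1603 on KO metformin, 2991 on KO vehicle, 554 on WT metformin and 458 on WT vehicle). Only 3 of them were expressed. Ighm and Jchain were highest on KO vehicle (11.38 and 7.02), while Derl3 was highest on WT vehicle (7.63, against 7.14 on KO vehicle). The sum of the 8 intestinal markers was also highest on KO vehicle (601, 614, 447 and 260 in the same order of arrays). Of the intestinal genes 3 were expressed, and the goblet cell mucin Muc2 and the intestinal factor Cdx2 were under the filter value. The part of these cells in the members' values was not tested. Fewer cells of a type and less RNA per cell cannot be told apart in such RNA.

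Of the 40 expressed members, 5 were at least 2-fold higher on the KO metformin than on the KO vehicle array and 0 lower, which is 12.5% of them. Of all 11090 expressed genes, 3.06% passed 2-fold, 2.44% higher and 0.613% lower. The 5 members were the fucosyltransferase relative Fut11 (1.43), St6gal2 (1.28), A4gnt (1.19), B4galnt2 (1.11) and the galactosyltransferase B4galt3 (1.08). The median difference of the 40 was 0.24, against 0.11 for all expressed genes, and 32 of the 40 lay above 0, against 61.7% of all expressed genes. After cyclic loess between arrays 3 of the 5 passed 2-fold (2.61% of all expressed genes), with B4galnt2 at 0.96 and B4galt3 at 0.98. All of these differences rest on both the KO metformin and the KO vehicle array. On KO vehicle 23 of the 40 had their lowest value (57.5%, against 44.3% of all expressed genes). On the WT vehicle array 14 of these had their highest value (35% of the members, against 28.8%), and 7 had it on the KO metformin array (17.5%, against 10%): A4galt, B4galt3, B4galt6, Fut11, Fut4, Fut8 and St6gal2.

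In WT mice 31 of the 40 members lay below 0 with metformin, against 65.3% of all expressed genes, and most differences were small. Past 2-fold, 0 of the 40 were higher and 2 were lower on the WT metformin than on the WT vehicle array, namely A4gnt (-1.03) and the sialyltransferase St3gal1 (-1.01). That is 5% of the members, against 1.7% of all expressed genes (0.775% higher and 0.929% lower). The median was -0.32, against -0.14 for all expressed genes. Both calls lie at the edge of the size rule and were lost after cyclic loess, at -0.92 each.

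**Figure D1:**
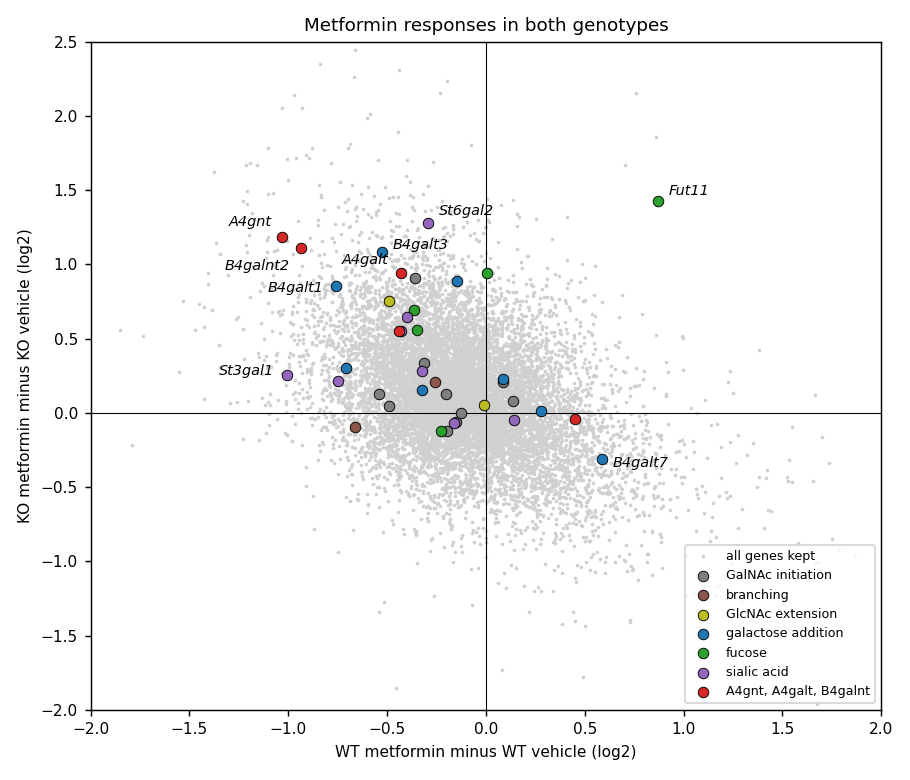
Metformin response in KO (vertical axis, log2 difference) against that in WT (horizontal axis, log2 difference), for all expressed genes (grey) and the 40 expressed members, coloured by role; 15 genes lie outside the axes. A4gnt and B4galnt2 sit at the upper left, lower with metformin in WT and higher in KO, while Fut11 is higher in both.

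The 2 responses share no array and can be set side by side. Lower with metformin in WT and higher in KO were 26 of the 40 members (65%), against 46.6% of all expressed genes. The reverse held for 3 members (7.5%, against 19.4%), namely B4galnt3, B4galt7 and St6galnac6. The responses lay at least 2-fold apart in 13 of the 40 (32.5%), always with the KO response above the WT response. Of all expressed genes 14.8% did so, 11.2% with the KO response above and 3.61% with it below, and 14.5% when the responses also had to be opposite, as they were in all of the 13 members. The KO response lay above the WT response in 35 of the 40 members, against 67% of all expressed genes, and the median difference of responses was 0.63, against 0.26. After cyclic loess 9 of the 13 were still 2-fold apart and B4galt6, Fut4, Galnt2 and St6galnac2 were not, while B4galt7 passed with the KO response below (11.9% of all expressed genes passed). With each array's trend on gene length removed as well, 8 of the 13 were left, without A4galt, B4galt6, Galnt2, St3gal1 and St6galnac2 (9.39% of all genes). Whether these responses differ beyond the spread between mice could not be tested with 1 array in each group.

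The genotypes under vehicle gave a count of members close to that of other genes. Of the 40, 5 were at least 2-fold lower on the KO vehicle than on the WT vehicle array and 0 higher, which is 12.5%, against 10.4% of all expressed genes (2.31% higher and 8.12% lower). They were B4galnt2 (-2.80), A4gnt (-1.48), B4galt1 (-1.45), St6gal2 (-1.18) and St3gal1 (-1.16). After cyclic loess 4 of the 40 were lower and 1 was higher, with St6gal2 just short of 2-fold and B4galt7 past it. The median was -0.40, against -0.22 for all expressed genes, and 32 of the 40 lay below 0, against 66.9%. The comparison shares the WT vehicle array with the WT response and the KO vehicle array with the KO response, so its values are given beside those and not as separate support. Under metformin, 0 of the 40 differed by 2-fold between the KO and WT arrays, against 0.92% of all expressed genes (0.532% higher and 0.388% lower). Above 0 were 29 of the 40, against 53%. The members then ranged from -0.75 (B4galnt2) to 0.80 (Galnt6), with a median of 0.18. Without the filter on low values, 5 of all 70 members passed 2-fold in the KO response (2.51% of all 22180 genes), 3 in the WT response (1.34%), 5 between the genotypes under vehicle (7.24%), 0 under metformin (0.974%) and 15 in the difference of responses (11.8%).

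**Figure D2:**
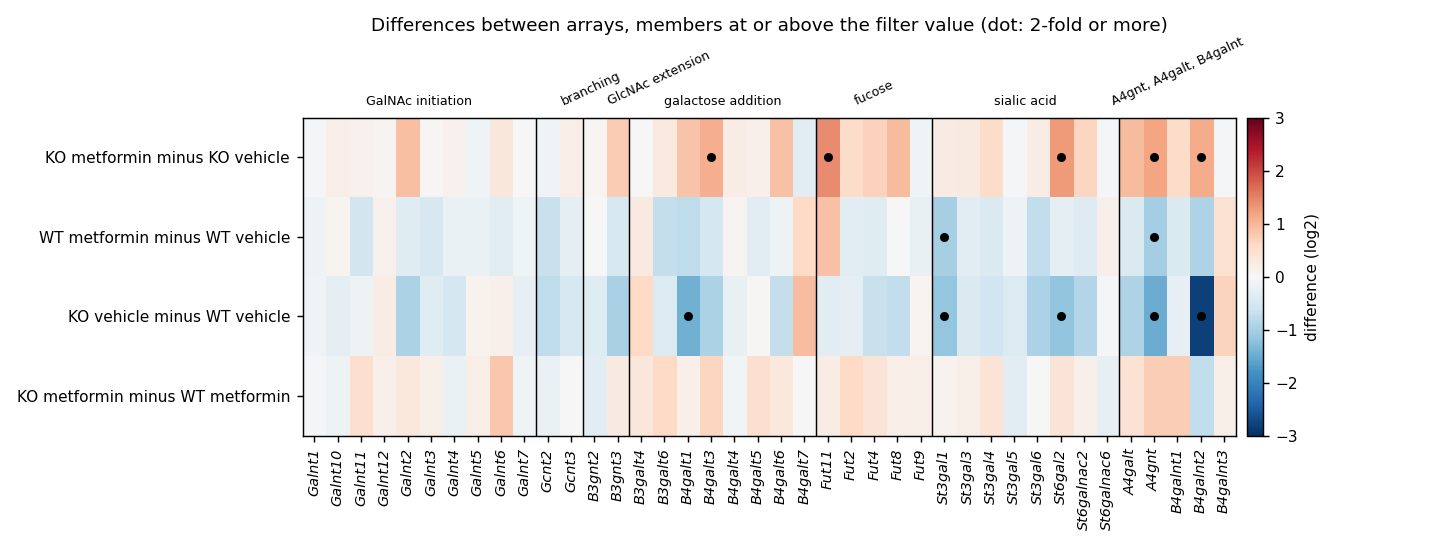
Log2 differences of the 40 expressed members (columns, grouped by role) in 4 comparisons of single arrays (rows), with a dot at 2-fold or more. The dots fall on galactose, fucose, sialic acid and terminal GalNAc or GlcNAc enzymes, and none lies in the bottom row (KO metformin minus WT metformin). Galnt2 (-0.94) and B3gnt3 (-0.97) lie just short of a dot in KO vehicle minus WT vehicle.

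Averaged over both genotypes or both treatments, no member passed a test, but the fit rarely finds a 2-fold difference in simulated arrays, so that a count of 0 says little about differences of that size. In limma, with genotype and treatment as terms and 2 arrays on each side, 0 of the 40 members had an adjusted p under 0.05 for genotype and 0 for metformin. The lowest adjusted p was 0.999 for genotype and 1 for metformin. At an unadjusted p under 0.05 there was 1 member in each. Among all expressed genes 5 (0.0451%) passed the adjusted threshold for genotype and 0 for metformin, with 374 (3.37%) and 32 (0.289%) at the unadjusted one. In simulated arrays with 200 genes changed by 1 (log2) between the genotypes, the fit found 1.675% of them. It made a mean of 4.45 false calls per run there. Of genes changed by 2 (log2) it found 90.2%, and of those changed by 3 it found 99.75%. The mean false calls per run were then 22.60 and 22.45. The fit has 1 residual degree of freedom per gene, which also holds any difference between the responses. No such difference was put into the simulated arrays, so these shares may not hold for genes whose responses differ. The member past the unadjusted threshold was B4galnt2 for genotype, with an average difference of -1.77 ± 0.45 (SE), and Fut11 for metformin, with 1.15.

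The first role group holds A4gnt, A4galt and the B4galnt enzymes, of which A4galt and B4galnt1 act on glycolipids. B4galnt2 had log2 values of 8.75 on KO metformin, 7.64 on KO vehicle, 9.50 on WT metformin and 10.44 on WT vehicle. Both KO values were under both WT values. The KO vehicle array was 6.94-fold under the WT vehicle array, and only 5 of the 11090 expressed genes were lower in that comparison. The distance between the genotypes was smaller under metformin (-0.75). With metformin B4galnt2 was 2.16-fold higher in KO, and it differed by -0.94 in WT.

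A4gnt had 9.28 on KO metformin, 8.09 on KO vehicle, 8.54 on WT metformin and 9.57 on WT vehicle. Here the genotypes overlapped, and the vehicle arrays were the extremes. KO vehicle was 2.78-fold lower than WT vehicle, and metformin went with a 2.28-fold higher value in KO and a 2.04-fold lower one in WT. A4gnt had the largest difference of responses among the 40 (2.22), followed by B4galnt2 (2.05).

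Muc6, the mucin that carries the sugar A4gnt makes, was likewise lowest on KO vehicle, but highest on KO metformin instead of WT vehicle. It had 11.62 on KO metformin, 10.41 on KO vehicle, 10.82 on WT metformin and 11.45 on WT vehicle. Its differences were 1.22 (KO response), -0.63 (WT response) and -1.05 (genotypes under vehicle). A4gnt itself is known from mucous neck cells, and it was left out of their marker list. Of 5 expressed neck markers, 4 were above 0 in the KO response, against 61.7% of all expressed genes. In KO vehicle against WT vehicle 4 were above 0 as well, while 66.9% of all expressed genes lay below 0. There Muc6 was the one below 0, and Bpifb1 stood at 0.92, Tff2 at 0.89, Gkn3 at 0.21 and Aqp5 at 0.01. The summed linear signal of the 6 neck markers measured was 9746 on KO metformin, 8386 on KO vehicle, 8770 on WT metformin and 6699 on WT vehicle. The part of neck cell number in the A4gnt values was not tested.

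The other 3 expressed members of this group stayed under 2-fold in the 4 comparisons of single arrays. A4galt, which makes the globo-series glycolipid Gb3, had 8.10 on KO metformin, 7.16 on KO vehicle, 7.66 on WT metformin and 8.09 on WT vehicle. The KO vehicle value was the lowest, by -0.93 from WT vehicle, and the KO response was 0.94. B4galnt1, which makes the gangliosides GM2 and GD2, had 9.68, 9.12, 8.94 and 9.38 in the same order of arrays, with the KO metformin value the highest. B4galnt3, which caps chains with GalNAc linked to GlcNAc and is known from gastric mucosa, ran the other way: it had 7.69 on KO metformin, 7.73 on KO vehicle, 7.51 on WT metformin and 7.06 on WT vehicle. Its difference between the genotypes under vehicle was 0.67. B4galnt4 was under the filter value on all arrays, between 3.62 and 3.84.

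**Figure D3:**
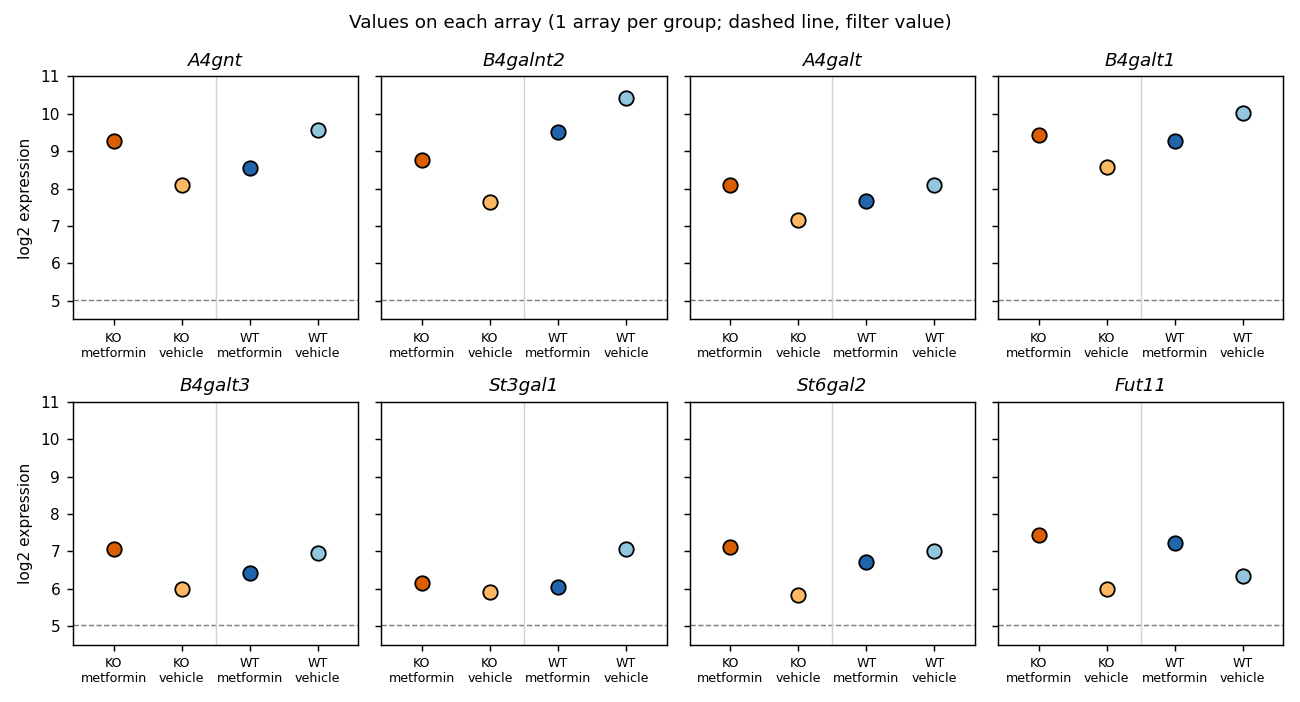
Log2 expression (vertical axis) on each of the 4 arrays (horizontal axis, 1 array per group) for the 7 members past 2-fold in a comparison and A4galt; the dashed line is the filter value. B4galnt2 separates the genotypes, A4gnt is lowest on KO vehicle and highest on WT vehicle, and Fut11 is higher on both metformin arrays.

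Galactosyltransferases came next. B4galt1, which builds lactosamine arms on many glycans, had 9.42 on KO metformin, 8.57 on KO vehicle, 9.26 on WT metformin and 10.02 on WT vehicle. The KO vehicle value was 2.74-fold under that of WT vehicle, and the responses were 0.85 in KO and -0.76 in WT. B4galt3, a related lactosamine enzyme, had 7.07 on KO metformin, 5.99 on KO vehicle, 6.42 on WT metformin and 6.95 on WT vehicle. It was 2.12-fold higher with metformin in KO, and after cyclic loess the difference was 0.98.

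B4galt6, which makes lactosylceramide, had 8.29 on KO metformin, 7.40 on KO vehicle, 7.98 on WT metformin and 8.12 on WT vehicle. Its KO vehicle value was the lowest, and the KO response was 0.89. B4galt7, which adds a galactose of the linker that joins glycosaminoglycans to proteins, was highest on KO vehicle: 6.28 on KO metformin, 6.59 on KO vehicle, 6.26 on WT metformin and 5.67 on WT vehicle. Its difference between the genotypes under vehicle was 0.92, and a further, dimmer probe set of the gene gave 0.22. After cyclic loess B4galt7 passed 2-fold in that comparison. Of the 8 expressed members of this role, 7 were above 0 in the KO response (median 0.27), against 61.7% of all expressed genes. In the WT response 5 of the 8 were below 0 (median -0.23), close to the 65.3% of all expressed genes.

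Among 8 expressed sialyltransferases, 8 were below 0 in KO vehicle against WT vehicle, as were 66.9% of all expressed genes, and their median was -0.73, against -0.22 for all expressed genes. St3gal1, which sialylates the core 1 disaccharide of mucins, had 6.16 on KO metformin, 5.90 on KO vehicle, 6.05 on WT metformin and 7.06 on WT vehicle. The WT vehicle array stood above the other 3, which lay close together. St6gal2, which adds sialic acid to lactosamine arms and is known mainly from brain, had 7.11 on KO metformin, 5.83 on KO vehicle, 6.72 on WT metformin and 7.01 on WT vehicle. Here the KO vehicle array stood below the other 3.

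St6galnac2, which adds sialic acid to the innermost GalNAc of O-glycans, had 7.82 on KO metformin, 7.17 on KO vehicle, 7.66 on WT metformin and 8.06 on WT vehicle, and its difference between the genotypes under vehicle was -0.89. St3gal5, which makes the ganglioside GM3, had 7.68, 7.74, 7.98 and 8.15 in the same order of arrays, so that both KO values were under both WT values. The remaining expressed sialyltransferases lay between -0.95 (St3gal6) and -0.06 (St6galnac6) in that comparison. St6gal1 was under the filter value, with 4.62 to 4.96 over the arrays.

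The 5 expressed fucosyltransferases had a median of 0.70 in the KO response, and their differences of KO metformin from WT metformin ran from 0.18 to 0.61. Fut2, which makes the H antigen of secretory epithelia, had 9.56 on KO metformin, 9.001 on KO vehicle, 8.95 on WT metformin and 9.30 on WT vehicle. Fut8, which fucosylates the core of N-glycans, had 9.56, 8.61, 9.36 and 9.36 in the same order of arrays. For Fut8 only the KO vehicle array stood apart, and the KO response was 0.94.

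Fut11, grouped by sequence with enzymes of Lewis antigens, was the one member higher with metformin in both genotypes by more than 0.8, with 7.43 on KO metformin, 6.00 on KO vehicle, 7.21 on WT metformin and 6.34 on WT vehicle. Both metformin values were above both vehicle values. Its 2.69-fold difference in KO rests on 1 of its 2 probe sets: the other gave 0.18 in KO and -0.64 in WT, and the mean of both gave 0.81 in KO. Fut4 and Fut9, enzymes of the Lewis x antigen, had KO responses of 0.70 and -0.12. Fut1, which makes the H antigen in other tissues, and Fut7 and Fut10 were under the filter value, as was the pseudogene Fut4-ps1.

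The expressed enzymes that start the chains, branch them or extend them with GlcNAc stayed under 2-fold in all 4 comparisons. Of all expressed genes 3.06% passed in the KO response, 1.7% in the WT response, 10.4% between the genotypes under vehicle and 0.92% under metformin. A count of 0 among so few genes therefore says little. B3gnt3 passed between the genotypes under vehicle when each array was centred on its median. Galnt2 and B3gnt3 are also among the 13 members whose responses lay at least 2-fold apart. For the 10 expressed polypeptide GalNAc transferases the medians were 0.10 (KO response), -0.20 (WT response), -0.20 (genotypes under vehicle) and 0.16 (genotypes under metformin). Galnt3 had 8.76 on KO metformin, 8.72 on KO vehicle, 8.59 on WT metformin and 9.09 on WT vehicle, and Galnt7, which acts on peptides that already carry GalNAc, 8.71, 8.71, 8.84 and 8.96. For each of these genes the values lay close together. Galnt2 stood apart from its family, at 8.43 on KO metformin, 7.52 on KO vehicle, 8.11 on WT metformin and 8.46 on WT vehicle. Its KO vehicle value was -0.94 from WT vehicle and its KO response was 0.91.

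Gcnt3, which makes the branched cores of mucins, had 9.06 on KO metformin, 8.85 on KO vehicle, 9.07 on WT metformin and 9.33 on WT vehicle, a narrow range. Gcnt2, which branches lactosamine chains into the I antigen, had 6.35, 6.44, 6.56 and 7.22, with WT vehicle above the rest, and a difference of -0.77 between the genotypes under vehicle. The gene's other 2 probe sets were under the filter value and are not read. B3gnt3, which extends the core 1 chain, had 9.91 on KO metformin, 9.15 on KO vehicle, 9.63 on WT metformin and 10.12 on WT vehicle. Its difference between the genotypes under vehicle was -0.97 and its KO response 0.75. B3gnt2, which elongates lactosamine chains, had 5.68, 5.63, 5.99 and 6.00, with both KO values under both WT values.

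The 30 members under the filter value held 7 Galnt, 3 Gcnt, 5 B3gnt, 4 galactosyltransferase, 4 Fut and 6 sialyltransferase genes besides B4galnt4. Among them were B3gnt6, which makes the core 3 structure of intestinal mucins, St6galnac1, which makes the sialyl-Tn antigen, and Gcnt1. One of the 30 differed by 2-fold in a comparison: Galnt15, with 4.69 on KO metformin, 4.93 on KO vehicle, 4.36 on WT metformin and 5.55 on WT vehicle. Such low values are not read as folds. Of the 40 expressed members, 3 were under the filter value on 1 array each (B3galt6, B4galt4 and St3gal4).

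**Figure D4:**
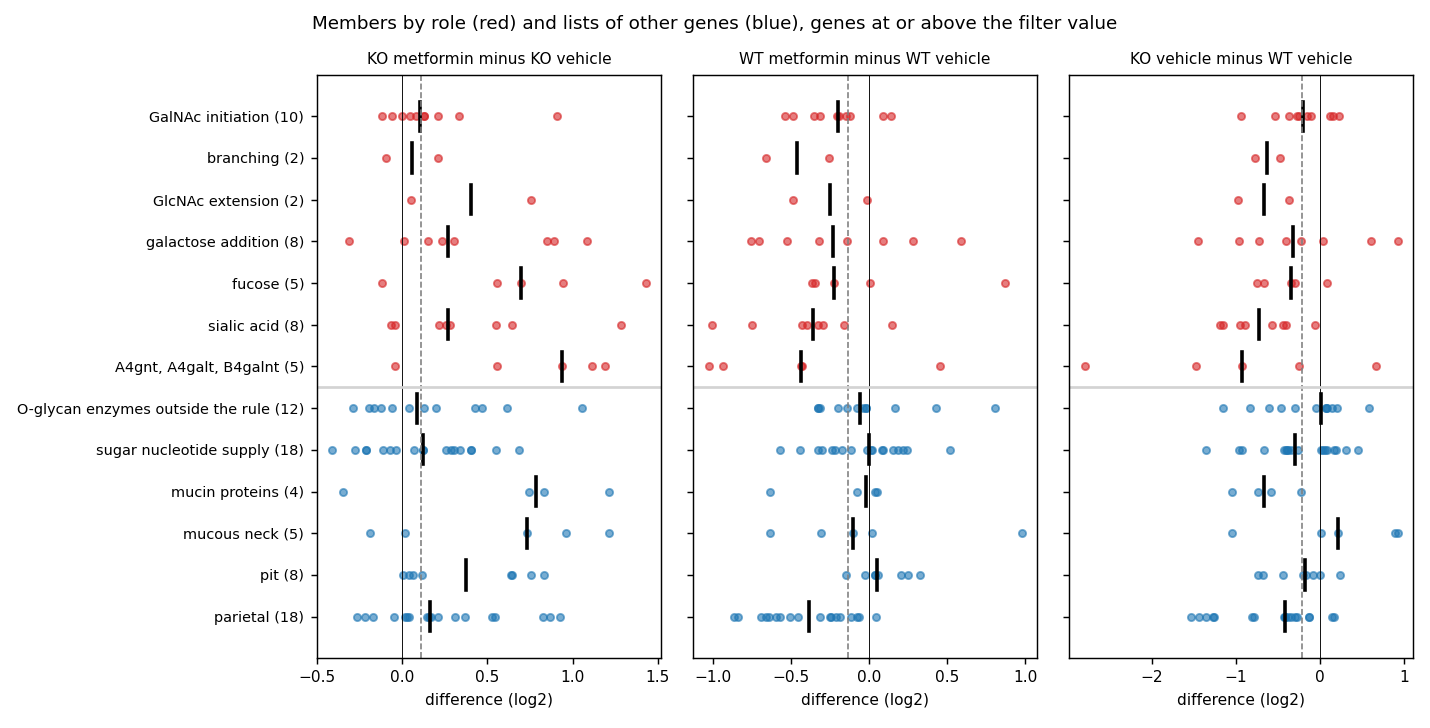
Log2 differences (horizontal axes) of expressed members by role (red points) and of lists of other genes (blue points), with the median of each (black bars), 0 (solid line) and the median of all expressed genes (dashed line), for 3 comparisons of single arrays; the number of genes is in parentheses. The medians of fucosyltransferases and of the A4gnt, A4galt and B4galnt group lie to the right in KO with metformin. Those of mucins, neck markers and, less so, pit markers (0.38) do too, and the mucin and neck lists, of 4 and 5 genes, share Muc6. Smooth muscle (0.53) and squamous markers (2.40), which are not shown, also had medians above that of all expressed genes. GalNAc initiation and sugar nucleotide genes lie near the dashed line.

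Other genes of the pathway were taken from lists. Of 17 O-glycan enzymes outside the rule, 12 were expressed, and 1 passed 2-fold in the KO response, as did 3.06% of all expressed genes. The 1 past 2-fold was the polysialyltransferase relative St8sia6, with 7.31 on KO metformin, 6.25 on KO vehicle, 7.38 on WT metformin and 7.40 on WT vehicle, where KO vehicle alone stood low. The core 1 enzyme C1galt1, which most mucin chains need, had 10.33, 10.29, 10.18 and 10.21 in the same order of arrays, and its chaperone C1galt1c1 had 5.52, 5.81, 5.72 and 5.86.

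Of 19 measured genes that make or carry the sugar nucleotides, 18 were expressed and 0 passed 2-fold in either metformin response. Of all expressed genes 3.06% passed in KO and 1.7% in WT, so 0 of 18 says little. Gnpnat1, an enzyme of UDP-GlcNAc synthesis, was the one past 2-fold between the genotypes under vehicle, where 10.4% of all expressed genes passed. It had 7.33 on KO metformin, 7.05 on KO vehicle, 8.16 on WT metformin and 8.40 on WT vehicle, both KO values being under both WT values. The list's median was 0.12 in the KO response, against 0.11 for all expressed genes. Of 11 mucin genes measured 4 were expressed. Muc5ac had 12.49, 11.66, 12.43 and 12.40 and Muc1 11.93, 11.19, 11.82 and 11.78 on KO metformin, KO vehicle, WT metformin and WT vehicle, so that in both KO vehicle stood below the rest. Muc13 did not share this, with 5.46, 5.81, 5.96 and 6.04.

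The expressed members were long genes, with a median span of 42.7 kb, against 23.5 kb for all expressed genes whose span is known. With the trend of each array on gene length removed after cyclic loess, the median of the 40 was 0.12 in the KO response, -0.09 in the WT response and -0.21 between the genotypes under vehicle, against medians of all expressed genes between -0.01 and 0.00. Between the genotypes under vehicle 3 members were then at least 2-fold lower (B4galnt2, A4gnt and B4galt1) and 2 were higher (B4galnt3 and B4galt7), against 6.36% of all genes in either direction, while A4gnt (0.99) and B4galnt2 (0.90) no longer did so in the KO response. St3gal1 (-0.82) and St6gal2 (-0.80) did not reach it between the genotypes. The members are spread over 19 chromosomes, with at most 9 on one.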

How the data were processed

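Per the labels' protocols, an Affymetrix WT Plus kit turned total RNA of the gastric corpus into biotin-labelled cDNA for 4 arrays. The authors deposited log2 expression values for 41345 probe sets, made with RMA and Partek per the submitters' processing notes. That they are on a log2 scale follows from their range (0.77 to 14.02). The sources used here give no versions, settings or annotation build. RMA is known to shrink low values toward each other, so differences of dim probe sets are understated. The number of arrays limits the precision.

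The platform annotation pairs 23521 probe sets with 1 gene, 1814 with several and 16010 with none. Symbols were updated by gene identifier from a RefSeq table (GRCm38.p6), where 23328 were found. The probe set of highest mean stood for a gene, which left 22180 genes, and 11090 with a mean of at least 5.03 were kept. Of the 70 members 65 have 1 probe set and 5 have several. Probe sets shared with another gene were left out, 3 of them for genes of the rule, and B3gnt4 is thereby not analysed here.

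Differences between single arrays have no test, so counts are set beside the share of all genes. Averages of 2 arrays against 2 were tested in R 4.3.3 by limma 3.58.1, using lmFit and eBayes with Benjamini-Hochberg adjustment, and the step was checked on simulated arrays. Promoter windows of 51 of the 70 members were found in the RefSeq table, with 71 windows in all. The members and lists were chosen with earlier results of these data known. Values on all arrays are given for A4gnt, A4galt, B4galnt2, members past 2-fold and the 2 of highest mean in each role; other members and list genes so described were chosen after their values were seen. The results were also computed with other scalings (cyclic loess, centring on array medians), with other filters (none, the 75th percentile), from averaged probe sets, by a 1.5-fold rule and, for limma, with trend or robust variances. Added after seeing the data was cyclic loess with protein-coding genes only and each array's trend on gene length removed (lowess, span 0.3).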

Additional observations from a re-analysis of the deposited data

Results flagged for a closer look

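Metformin responses pointed in opposite directions in the 2 genotypes, lower in WT and higher in KO, and lay at least 2-fold apart, for 13 of the 40 expressed members. With 1 array in each group these differences were not tested, and 14.5% of all expressed genes met the same rule in either direction. The difference of responses (KO minus WT, log2) was 2.22 for A4gnt and 2.05 for B4galnt2. Among galactosyltransferases it was 1.61 for B4galt1, 1.61 for B4galt3, 1.03 for B4galt6 and 1.01 for B3galt6. Among sialyltransferases it was 1.58 for St6gal2, 1.26 for St3gal1 and 1.04 for St6galnac2. It was 1.37 for A4galt, 1.27 for Galnt2, 1.24 for B3gnt3 and 1.06 for Fut4. After cyclic loess B4galt6, Fut4, Galnt2 and St6galnac2 were no longer 2-fold apart, and with the gene length trend removed A4galt, B4galt6, Galnt2, St3gal1 and St6galnac2 were not.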

How the results depend on the processing

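For A4galt and the 7 members past 2-fold in a comparison, 0 of 230 values under the alternatives of filter, scaling and probe set summary reversed, and 15 dropped under 2-fold. Many of the 230 could not move, because a filter leaves a gene's value as it is. Averaging probe sets can change only Fut11 among these genes. Values already under 2-fold could not drop under it. Apart from Fut11 with averaged probe sets (0.81 in the KO response), every drop came after cyclic loess, with or without the length trend removed. The other members were not followed singly. In the WT response the count of members past 2-fold was 2 as reported, 1 with the filter at the 75th percentile (2.25% of all genes), 0 after cyclic loess (1.54%), 0 with the gene length trend removed (0.787%) and 9 by a 1.5-fold rule. In the KO response it was 5 as reported, 3 after cyclic loess (2.61%), 2 with the length trend removed (1.99%) and 13 by the 1.5-fold rule. Between the genotypes it was 5 under vehicle and 0 under metformin, against 18 and 7 by the 1.5-fold rule, and the difference of responses was past the rule in 13, against 22. For that difference the count was 11 after cyclic loess, with 9 of the 13 kept, and 9 with the length trend removed, with 8 kept. By the 1.5-fold rule 12.6%, 16.2%, 31.9%, 5.78% and 38.2% of all expressed genes passed in these comparisons. A lower size rule or fewer genes explain the counts by construction for the 1.5-fold rule and the stricter filter; otherwise the cause was not tested. Cyclic loess put the median of all expressed genes at -0.07 between the genotypes under vehicle, against -0.22 as reported, and at 0.09, against 0.26, in the difference of responses; the members' medians moved along, to -0.25 and 0.41 after loess, against -0.40 and 0.63 as reported. No paired analysis was possible because each group holds 1 array and the labels give no replicate numbers. Differences near 1 on the log2 scale are the least certain, and array background, which is not in the table used, limits the dim members.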
